A study of Mus musculus with 4 samples.

Results

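The potassium and calcium channel subunits described here are the probe sets (groups of short oligonucleotides that read 1 transcript, numbered here within a gene from the brightest) whose platform annotation names a single gene with a symbol starting Kcn or Cacn. These were 124 probe sets for 85 genes, out of 22626 probe sets for 12393 named genes. They were measured in the aorta of female mice at 6 weeks of age, all without apolipoprotein E (apoE-/-), a protein that clears lipoprotein remnants from blood. The groups were C57BL/6 apoE-/- on chow, C57BL/6 apoE-/- on Western diet for 2 weeks, C3H/HeJ apoE-/- (C3H below) on chow and C3H apoE-/- on Western diet for 2 weeks. Mice were weaned at 3 weeks onto chow, and those of the Western groups were switched at 4 weeks. Each group had 1 array. No value below therefore has a replicate check, and precision is limited by how few arrays there are. The labels do not say how many animals gave the RNA of an array.

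Potassium channels let potassium leave the cell and hold the membrane potential negative, and voltage-gated calcium channels open when the membrane depolarises and let calcium in. In arterial smooth muscle the L-type calcium channel supplies calcium for contraction, and large-conductance calcium-activated, voltage-gated, inward rectifier and background potassium channels oppose that depolarisation. Most of these channels are complexes, with a pore subunit of one gene family and accessory subunits of another.

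Because the values come without detection calls, signals no higher than the 40th percentile of all normalized signals (83.6, called the floor below) were treated as bounds. Folds that involve such a signal were computed with the floor in its place and are written "at least". Signals are normalized linear intensities, and folds are taken between arrays for 1 probe set. Sums, ranks and the word dim compare the signals of several probe sets, not amounts of transcript. Apoe, the gene deleted in all groups, was under the floor on every array (19.1 on chow and 65.3 on Western diet in C57BL/6, and 16.1 and 55.5 in C3H). Its 1 probe set is not known here to lie in the deleted part, so it checks the labels little. The C3H chow array stood apart, with an actin 3'/5' signal ratio of 2.28 against 1.63 to 1.83 elsewhere and correlations with the other arrays of 0.868 to 0.904, where the highest correlation of the other arrays was 0.931. The comparison of strains on Western diet and the diet response in C57BL/6 do not use that array. The comparison of strains on chow and the diet response in C3H both rest on it, and no other array can stand in for it. All 8 smooth muscle markers (Acta2, Myh11, Tagln, Cnn1, Smtn, Des, Myocd and Lmod1) exceeded the floor on all 4 arrays. So did all 6 brown fat markers, while the 9 heart muscle markers were all above it on both C57BL/6 arrays and 1 and 2 of them on C3H chow and C3H Western.

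Channel probe sets were mostly dim in these aortas. Of the 124 probe sets, 45 were under the floor on every array (36.3%, against 16.4% of all probe sets), 41 were above it on 1 array, 15 on 2, 13 on 3 and 10 on all 4 (8.06%, against 38.6% of all probe sets). By gene, 25 of 85 had no probe set above the floor on any array. They included the skeletal muscle calcium channel pore Cacna1s, the T-type calcium channel pore Cacna1g, the heart channel subunits Kcnq1, Kcne1, Kcnd2 and Kcnd3, the inward rectifiers Kcnj2 and Kcnj12, the beta subunit Cacnb2 and the small-conductance channel Kcnn3. With each gene counted by its probe set above the floor on the most arrays, another 28 genes had 1 array and 11 had 2. Different probe sets of a gene could exceed the floor on different arrays. The 8 genes with a probe set above the floor on all arrays were Kcnma1, Kcnmb1, Kcnab1, Kcna5, Kcnh2, Kcnj8, Kcnk3 and Kcnn4. Each array had a like number of channel probe sets above the floor, from 35 on C57BL/6 Western to 41 on C3H chow.

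**Figure D1:**
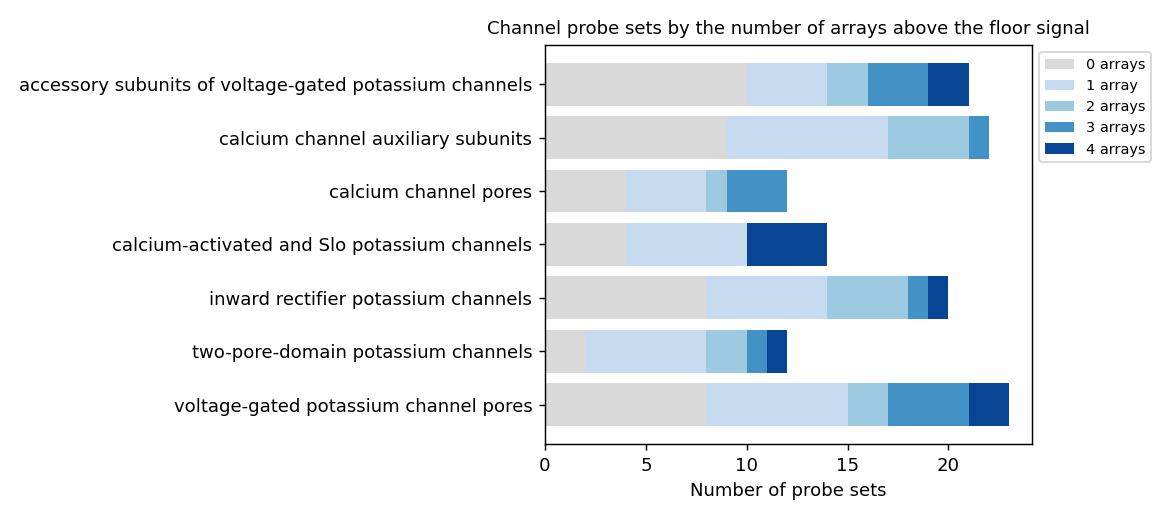
Number of channel probe sets in each channel class (horizontal axis), split by the number of arrays on which the probe set was above the floor signal of 83.6. Calcium-activated and Slo potassium channels had 4 of 14 probe sets that exceeded it on every array, while neither calcium channel class had any.

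Between the strains on chow, 23 channel probe sets had both arrays above the floor. In C3H, 7 of them were higher by 2-fold or more and 5 were lower. This split was 6 and 3 with cyclic loess, and also with 1 probe set per gene. Over all 10522 probe sets measured in this pair, 8.2% were higher and 8.94% lower by that measure (17.1% in either direction), against 52.2% of the channel probe sets. The channel probe sets were dimmer than the rest, with a median signal of 159 against 271 in this pair. The part of their dimness, and of the C3H chow array, in that share was not tested. Higher in C3H were 1 set each of Kcnk3, Kcnh2, Kcna3, Kcnj4, Kcna5, Kcnj9 and Kcnj6. Lower in C3H were both probe sets of Kcnab1, both of Kcnmb1, and Kcnma1. Bounds of 2-fold or more add 5 higher (1 set each of Cacng7, Cacna1d, Kcnj9, Kcnk3 and Kcna2) and 2 lower (Kcne4 and Kcnj3). The share of all probe sets past 2-fold by bound was not computed, so these additions have no background to be read against.

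Between the strains on Western diet, 2 of 17 measured channel probe sets differed by 2-fold or more, Cacna1c and Kcne4, both with the lower signal in C3H. Over all 10956 probe sets the shares were 4.17% higher and 4.24% lower (8.41% in either direction). With Western diet, C57BL/6 had 1 of 17 channel probe sets at least 2-fold higher (Kcna5) and 2 lower (Kcnma1 and Kcnj3), against 3.79% higher and 3.97% lower of all 10914 probe sets (7.76% in either direction). This split was 1 and 1 with the deposited values and with cyclic loess. C3H had 4 of 20 at least 2-fold higher (both probe sets of Kcnab1, 1 of Kcnmb1, and Kcnn4) and 2 lower (Kcnk3 and Cacng7), against 6.4% higher and 5.95% lower of all 10681 (12.3% in either direction). The C3H split was 4 and 1 with cyclic loess. Bounds of 2-fold or more add 0 higher and 8 lower for diet in C3H. These were 1 set each of Kcna2, Kcna3, Kcnj4, Kcnj6, Kcnk3 and Cacng5, and sets 1 and 2 of Kcnj9. They add 1 higher (Cacna1d) and 0 lower for diet in C57BL/6, and 0 between strains on Western diet. The share of all probe sets past 2-fold by bound was not computed. With equal array medians, the split of all probe sets in C3H was 865 higher and 455 lower. The median log2 difference of the measured channel probe sets was 0.19 between strains on chow (0.03 over all measured probe sets), -0.18 between strains on Western diet (0.01), -0.01 for the diet response of C57BL/6 (0.00) and -0.18 for that of C3H (-0.00).

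**Figure D2:**
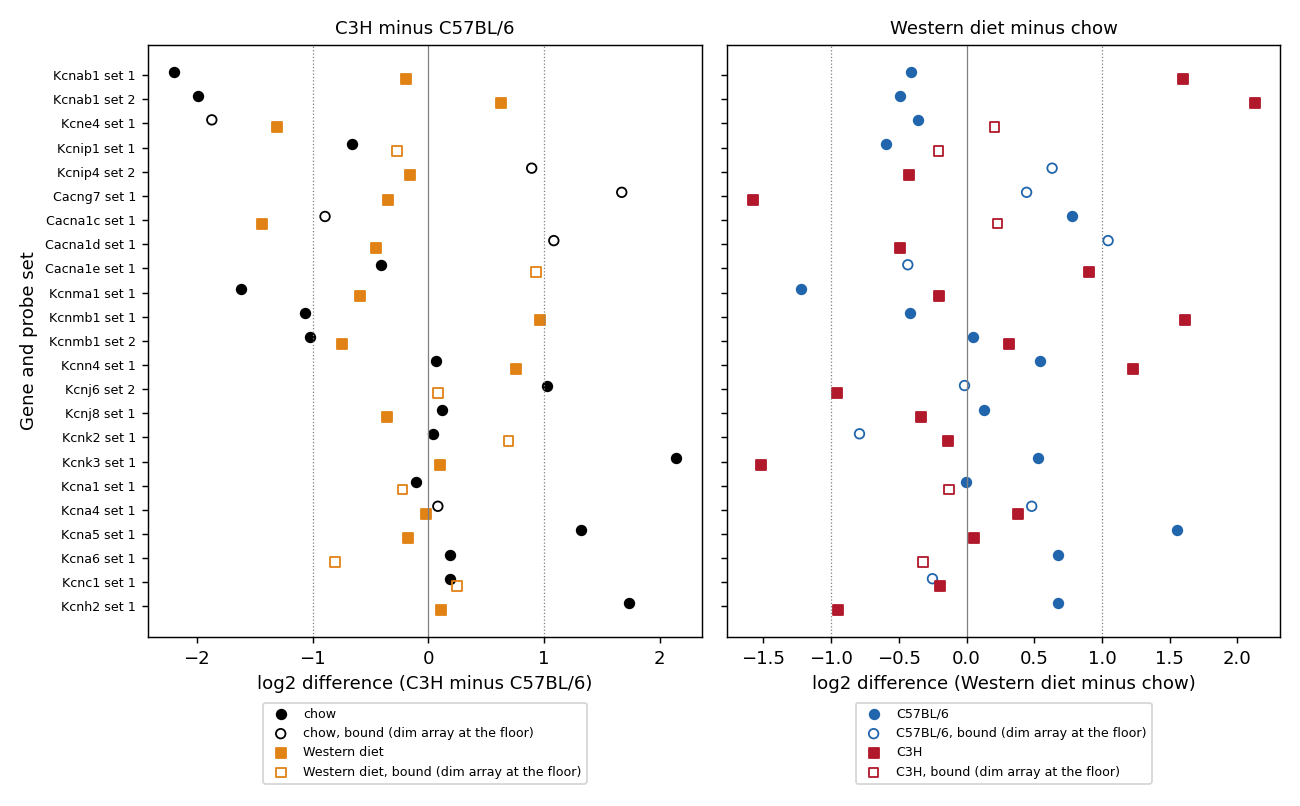
log2 differences between strains (left, C3H minus C57BL/6) and between diets (right, Western diet minus chow) of the 23 channel probe sets that exceeded the floor on 3 or 4 arrays. Filled symbols have both arrays above the floor, open symbols have the dim array raised to the floor and are bounds, and dotted lines mark 2-fold; Kcnk3 (2.14) and Kcnab1 (-2.20) lie at opposite ends between the strains on chow.

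The large-conductance calcium-activated potassium channel of smooth muscle joins a pore, Kcnma1, to a beta subunit, Kcnmb1, that raises its calcium sensitivity. Kcnmb1 was read by 2 probe sets. The brighter one (set 1) gave signals of 410.4 on chow and 307 on Western diet in C57BL/6, and 196 and 599 in C3H. Set 2 gave 226, 233, 112 and 139 on the same arrays. Both were lowest on C3H chow, where they were 2.09-fold and 2.03-fold lower than on C57BL/6 chow. They parted on Western diet, where set 1 was 1.95-fold higher and set 2 1.68-fold lower in C3H. With Western diet in C3H set 1 was 3.06-fold and set 2 1.24-fold higher, and in C57BL/6 set 1 was 1.34-fold lower and set 2 1.03-fold higher (log2 0.05, and -0.01 with the deposited values). The pore gene Kcnma1 had 1 probe set above the floor, with 318 on chow and 136 on Western diet in C57BL/6, and 104 and 90.5 in C3H. It was thus highest on C57BL/6 chow alone, 3.06-fold over C3H chow and 2.34-fold over C57BL/6 Western, and the other 3 arrays lay close together near the floor. Its second probe set (8.89, 12.5, 16.1 and 63.8) was under the floor throughout. Pore and beta subunit therefore shared their difference between strains on chow, by 3 of 3 probe sets above the floor, but not their difference with diet in C3H, where Kcnma1 was 1.15-fold lower.

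The start regions of these genes are shown with those of Kcne4, lower in C3H on both diets, and Kcnj8, the most even of the 8 genes, so that genes with and without a difference can be read side by side. Each runs from 250 bases before to 50 bases after the annotated start, in RefSeq's GRCm38.p6, 5′ to 3′ on the gene's strand, with 1 annotated start per gene.
Kcnmb1, chr11:33962763-33963062, plus strand: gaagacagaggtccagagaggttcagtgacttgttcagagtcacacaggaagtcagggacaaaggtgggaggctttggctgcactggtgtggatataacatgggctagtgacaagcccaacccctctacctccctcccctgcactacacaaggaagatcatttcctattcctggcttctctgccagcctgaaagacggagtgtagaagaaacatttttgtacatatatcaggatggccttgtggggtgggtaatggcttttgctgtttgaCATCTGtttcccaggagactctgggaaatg
Kcnma1, chr14:24004156-24004455, minus strand: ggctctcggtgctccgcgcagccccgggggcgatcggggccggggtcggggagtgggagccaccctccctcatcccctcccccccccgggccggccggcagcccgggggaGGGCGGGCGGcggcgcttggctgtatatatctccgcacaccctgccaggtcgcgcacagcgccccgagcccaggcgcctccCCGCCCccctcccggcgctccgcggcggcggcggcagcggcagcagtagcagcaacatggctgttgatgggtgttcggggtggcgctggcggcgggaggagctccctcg
Kcne4, chr1:78816661-78816960, plus strand: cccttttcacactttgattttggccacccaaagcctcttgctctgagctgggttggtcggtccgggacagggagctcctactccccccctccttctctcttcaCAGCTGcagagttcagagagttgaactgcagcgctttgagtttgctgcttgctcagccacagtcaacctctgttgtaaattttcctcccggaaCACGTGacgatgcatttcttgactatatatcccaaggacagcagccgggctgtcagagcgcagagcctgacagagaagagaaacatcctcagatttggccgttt
Kcnj8, chr6:142571565-142571864, minus strand: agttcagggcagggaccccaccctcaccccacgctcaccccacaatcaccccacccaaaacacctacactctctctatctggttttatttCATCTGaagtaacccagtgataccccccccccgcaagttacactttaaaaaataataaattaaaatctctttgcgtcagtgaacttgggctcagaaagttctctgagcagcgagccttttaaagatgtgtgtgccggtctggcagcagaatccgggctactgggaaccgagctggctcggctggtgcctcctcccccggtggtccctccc
Capitals mark GGGCGG on either strand (the GC box) and CANNTG (the E-box, which reads alike on both strands). Kcnma1 had 3 matches to GGGCGG, among them a pair that overlap, and 78.0% G and C. The other windows had none, with 49.7% G and C in Kcnmb1, 52.7% in Kcne4 and 53.3% in Kcnj8. CANNTG occurred in Kcne4 at 2 places, in Kcnmb1 and Kcnj8 at 1 each, and not in Kcnma1. A CArG box, the motif bound by serum response factor, was not found in these windows, nor in any of the 94 windows of 68 channel genes in the table, and 1.63% of all 32851 windows held one. GGGCGG was in 50% of the channel windows and 35.7% of all, and CANNTG in 70.2% and 72.3%. These are matches of letters and no evidence that a factor binds there.

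The accessory subunits of voltage-gated potassium channels held the largest strain difference among channel probe sets measured on both chow arrays. Kcnab1 encodes a beta subunit that speeds inactivation of Shaker-type channels. Its set 1 gave 1072 on chow and 808 on Western diet in C57BL/6, and 233 and 705 in C3H, and set 2 gave 333, 237, 83.8 and 367. On both, C3H chow was lowest by a wide margin and the other 3 arrays lay within 1.52-fold (set 1) and 1.55-fold (set 2) of each other. On chow the C3H signals were 4.6-fold and 3.97-fold lower. On Western diet set 1 was 1.15-fold lower and set 2 1.55-fold higher. With Western diet it was 3.03-fold and 4.38-fold higher in C3H and 1.33-fold and 1.40-fold lower in C57BL/6. The C3H chow signal of set 2 lay just above the floor. In the additive limma fit of strain and diet, set 1 of Kcnab1 had the lowest p of the 38 channel probe sets fitted for strain (strain log2 -1.20, SE 0.41, unadjusted p = 0.00955, adjusted p = 0.614). That strain difference averages log2 -2.20 on chow and -0.20 on Western diet, so it lies mostly in the pair that uses the C3H chow array. Set 2, lower in C3H on chow only, had a strain difference of log2 -0.68 (SE 0.63, unadjusted p = 0.297, adjusted p = 0.878).

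Kcne4, a single-pass subunit that inhibits several voltage-gated potassium channels, gave 306 on chow and 238 on Western diet in C57BL/6, and 28.8 and 96.6 in C3H. Both C57BL/6 arrays were above both C3H arrays. The C3H signal was lower by at least 3.66-fold on chow (log2 -1.87) and by 2.47-fold on Western diet (log2 -1.30). The limma strain difference was log2 -2.36 (SE 0.90, adjusted p = 0.712). It is larger than both because limma took the C3H chow signal of 28.8 as measured, not as a bound. Kcne4 was the only one of the 124 probe sets at least 2-fold different between the strains on both diets in the same direction, counting bounds. The share of all probe sets that did so was not computed. The calcium-binding Kcnip subunits of A-type channels were dim. Kcnip1 gave 153, 101, 96.5 and 82.8 on its steadiest probe set (chow then Western diet, C57BL/6 before C3H). Its further probe sets scattered. One was above the floor on C57BL/6 chow only (157) and one on C57BL/6 Western only (97.5). The last was above it on C57BL/6 chow (131) and C3H Western (106). Kcnip4 gave 67.7, 69.0, 109 and 29.1 on set 1, and 5.06, 130, 155 and 116 on set 2. Kcnip2, the heart subunit, reached the floor only on C3H Western (147).

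Among voltage-gated potassium channel pores, Kcna5 carries delayed rectifier current in arterial smooth muscle and atrium. It gave 107 on chow and 315 on Western diet in C57BL/6, and 267 and 278 in C3H, so that C57BL/6 chow was low and the other 3 arrays lay close together. Against C57BL/6, the C3H signal was 2.5-fold higher on chow, while with Western diet it was 1.13-fold lower. Kcna5 was 2.94-fold higher with Western diet in C57BL/6 and 1.04-fold higher with it in C3H. Kcnh2 encodes the ERG pore of the rapid repolarising current of the heart. It gave 123, 196, 407 and 211 in the same order, highest on C3H chow, with a 3.32-fold strain difference on chow and 1.08-fold on Western diet. Kcna3, the main voltage-gated potassium channel of lymphocytes and also present in smooth muscle, gave 103, 74.8, 329 and 9.73. It stood out on C3H chow only, 3.19-fold over C57BL/6 chow and at least 3.94-fold over C3H Western. Kcna2 had the same form, with 180.1 on C3H chow and 9.84, 20.1 and 9.73 on the C57BL/6 chow, C57BL/6 Western and C3H Western arrays. Kcna1, Kcna4, Kcna6 and Kcnc1, known mainly from neurons, were above the floor on 3 arrays each, and their highest signal was 146.

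The inward rectifier Kcnj8 is the pore of the vascular ATP-sensitive potassium channel. It gave 463 on chow and 507 on Western diet in C57BL/6, and 501 and 396 in C3H. These arrays lay within 1.28-fold of each other, the narrowest range of the 10 probe sets above the floor everywhere. The log2 difference between strains on chow was 0.11, and -0.04 with equal array medians. Its partner subunit Abcc9, the sulfonylurea receptor of smooth muscle and heart, did not share this evenness. It gave 869, 608, 199.7 and 542 in the same order, so that C3H was lower by 4.35-fold on chow and by 1.12-fold on Western diet, and within C3H the Western array was 2.71-fold higher. Kcnj3 and Kcnj5 form the acetylcholine-activated channel of the atrium. Kcnj3 gave 223 and 86.7 on C57BL/6 chow and Western and 9.84 and 55.7 on C3H chow and Western, with C3H on chow lower by at least 2.67-fold. Kcnj5 gave 135, 80.3, 20.1 and 44.6 and was above the floor on C57BL/6 chow only. Both were highest on C57BL/6 chow, as the 9 heart muscle markers summed were (17781 and 13449 on the C57BL/6 arrays, 361 and 474 on the C3H arrays), and the part of heart tissue in the Kcnj3 and Kcnj5 signals was not tested. Kcnj4 and Kcnj9, known mainly from the nervous system, were highest on C3H chow. Kcnj4 gave 115, 14.7, 320.2 and 18.3. The brighter 2 of 3 Kcnj9 probe sets gave 265 and 288 on C3H chow, and at most 121 on any other array. The 5 probe sets of Kcnj6, a neuronal subunit of the same family, scattered, with 0 to 3 arrays above the floor. One of them gave 169 on C3H chow and 41.9 on C3H Western, at least 2.02-fold lower. That set was 1.57-fold higher in C3H on chow. The Kcnj6 set past 2-fold on chow (2.03-fold) gave 172 in C3H and 84.5 in C57BL/6, just above the floor. Kcnj11, the pore of the ATP-sensitive channel of heart and pancreatic islets, reached the floor on C3H chow only (135).

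Kcnk3, of the two-pore-domain class, gives a background potassium current in vessels, the atrium and brown fat. Its bright probe set, set 1, gave 450.2 on chow and 649 on Western diet in C57BL/6, and 1989 and 697 in C3H. C3H chow stood far above the rest, which lay within 1.55-fold of each other. Against C57BL/6, the C3H signal was higher by 4.42-fold on chow and by 1.07-fold on Western diet, and with Western diet Kcnk3 was 2.86-fold lower in C3H and 1.44-fold higher in C57BL/6. In limma the strain difference was log2 1.12 (SE 0.40, unadjusted p = 0.0113, adjusted p = 0.633). Its further probe sets did not give 1 pattern. One gave 41.9, 160, 181 and 11.4 in the same order, and the other 75.6, 69.1, 6.93 and 98.6, with C3H chow lowest. Of the other genes of its class only Kcnk2, a stretch- and lipid-sensitive channel, was above the floor on 3 arrays (145, 149 and 135 on C57BL/6 chow, C3H chow and C3H Western, and 17.0 on C57BL/6 Western).

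**Figure D3:**
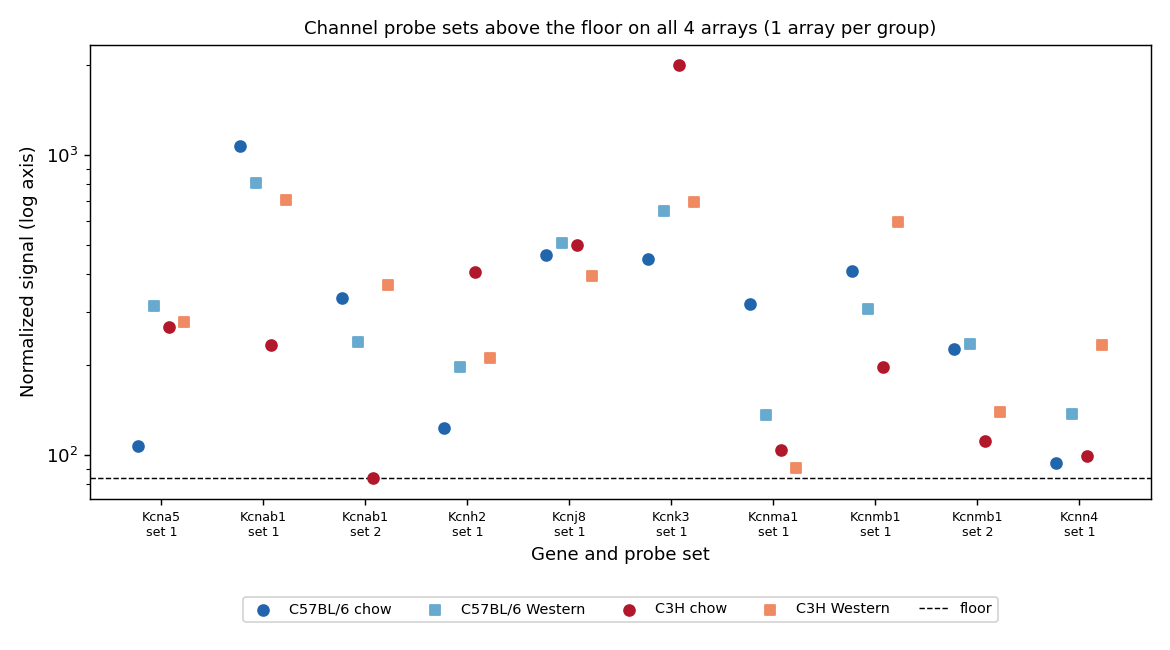
Normalized signal (vertical log axis) of the 10 channel probe sets that exceeded the floor everywhere, with 1 point per array and the floor of 83.6 as a dashed line. C3H chow is the lowest array for both Kcnab1 and both Kcnmb1 sets and the highest for Kcnk3 and Kcnh2, while the 4 points of Kcnj8 lie between 396 and 507.

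Intermediate- and small-conductance calcium-activated channels were dim. Kcnn4, the intermediate-conductance channel of endothelium and of activated leukocytes, gave 94.3 on chow and 137 on Western diet in C57BL/6, and 98.8 and 232 in C3H. The Western array was the higher one in each strain, 1.46-fold in C57BL/6 and 2.35-fold in C3H. Its second probe set (23.0, 20.0, 80.1 and 97.2) was above the floor on C3H Western only. The 7 macrophage and leukocyte markers, all on the array, were also higher on both Western arrays, with summed signals of 2907, 3915, 2697 and 5345 on chow and Western diet in C57BL/6 and then in C3H, and the endothelial sum ranged from 4591 to 5396. The part of leukocytes in the Kcnn4 signal was not tested.

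The calcium channels were represented thinly. Cacna1c, the L-type pore that supplies calcium for smooth muscle and heart contraction, has 1 probe set, with 155 on chow and 266 on Western diet in C57BL/6, and 37.6 and 98.0 in C3H. Both C57BL/6 arrays lay above both C3H arrays. Relative to C57BL/6, the C3H signal was lower by at least 1.86-fold on chow (log2 -0.89) and by 2.71-fold on Western diet (log2 -1.44). Limma gave a strain difference of log2 -1.74 (SE 0.92, adjusted p = 0.847). It is larger than both because limma took the C3H chow signal of 37.6 as measured, not as a bound. Western arrays were the higher ones in both strains, by 1.71-fold in C57BL/6 and at least 1.17-fold in C3H. The heart muscle markers, with the sums given above, were also lower in C3H on both diets, and so were Kcne4 and Cacna1a. The part of heart tissue in these 3 channel signals was not tested. The second L-type pore, Cacna1d, gave 40.1, 172, 177 and 126 on 1 probe set and 132, 82.0, 6.04 and 23.9 on the other (chow then Western diet, C57BL/6 before C3H), and these disagree in the direction of the strain difference on chow. Cacna1a, the P/Q-type pore, was above the floor on the C57BL/6 arrays only, at 132 and 91.9 against 17.7 and 11.2 in C3H. Both T-type pores of the fixed list were at or near the floor. Cacna1g had 55.5 as its highest signal, and the 2 probe sets of Cacna1h each reached it on 1 array, C57BL/6 Western (138) for one and C57BL/6 chow (148) for the other. Among auxiliary subunits none was above the floor everywhere. Cacng5 gave 170.3 on C3H chow and a signal under the floor on C3H Western, a bound of 2.04-fold. Its second probe set went the other way, with 23.0 on C3H chow and 88.7 on C3H Western. Cacng7, a gamma subunit that also binds glutamate receptors, gave 79.6, 114, 266 and 89.1 in the same order, with C3H chow at least 3.19-fold over C57BL/6 chow and 2.99-fold over C3H Western. Cacna2d1, the alpha2delta subunit of muscle, and Cacnb1, the skeletal muscle beta subunit, were near or under the floor, with highest signals of 117 and 125. Cacng1, the gamma subunit of skeletal muscle, reached the floor on C3H Western only (157). The 8 skeletal muscle markers summed to between 626 and 1262 over the arrays, with Tnni2 and Ryr1 under the floor throughout. The 3 of them above the floor everywhere had a median of log2 -0.31 over the mean of the arrays on C3H Western, against 1.15 on C57BL/6 chow, their highest, and their part in Cacng1 was not tested.

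Some channels of smooth muscle were lower in C3H on chow, as most smooth muscle markers were. These 8 markers summed to 99189.5 on chow and 74981 on Western diet in C57BL/6, and 43743 and 70852 in C3H, with a median log2 difference of -0.99 between strains on chow (4 of 8 at least 2-fold lower in C3H and 0 higher), -0.15 on Western diet (0 lower and 0 higher), -0.39 for diet in C57BL/6 and 0.42 in C3H. The differences on chow were log2 -2.20 and -1.99 for Kcnab1, -1.61 for Kcnma1 and -1.06 and -1.02 for Kcnmb1. Kcnj8 (0.11) and Kcna5 (1.32), also channels of smooth muscle, did not follow the markers. Cacna1c was lower in C3H on chow by a bound of log2 -0.89. On Western diet its difference was log2 -1.44, against the marker median of -0.15. In bulk RNA, fewer smooth muscle cells and less RNA per cell cannot be told apart, and the share of smooth muscle in these channel differences was not tested. Between strains on chow and with diet in each strain, the 6 fibroblast markers had medians of the same sign and larger. They summed to 59859 and 22286 on the C57BL/6 chow and Western arrays and to 15489 and 29786 on those of C3H, and on chow all 5 measured had C3H lower by 2-fold or more (median log2 -1.92). With Western diet all 6 were lower in C57BL/6, 4 of them by 2-fold or more (median log2 -1.26). In C3H all 5 measured were higher with Western diet, 2 of them by 2-fold or more (median log2 0.88). Their sum was highest on C57BL/6 chow, as Kcnma1 was, and their part in the channel signals was not tested either. Kcnk3 and Kcnh2 were highest on C3H chow, where the 6 brown fat markers were also highest. These summed to 40699 and 46833 on the C57BL/6 arrays, 80673 on C3H chow and 53886 on C3H Western, with 5 of 6 at least 2-fold higher in C3H on chow (median log2 1.61) and 0 on Western diet. The part of brown fat in the Kcnk3 signal was not tested. For the neuronal channels that were highest on C3H chow, the nerve and Schwann cell markers (6 of 8 on the array, Snap25 under the floor throughout) summed to 4108 and 2664 on the C57BL/6 chow and Western arrays and to 2607 and 3240.2 on those of C3H. Pmp22 made up most of each sum, with 3689, 2116, 1891 and 2684 in the order C57BL/6 chow, C57BL/6 Western, C3H chow and C3H Western. Without it, a choice made after its values were seen, the sums were 419, 548, 716 and 556, highest on C3H chow. The remaining markers with a signal above the floor peaked on different arrays. Stmn2 was highest on C3H chow (173) and Mbp on C3H Western (178). S100b was highest on C57BL/6 Western (251) and Prph on C57BL/6 chow (136). The 3 nerve markers above the floor everywhere had a median of log2 0.17 over the mean of the arrays on C3H chow, their highest, and their part in these channels was not tested.

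**Figure D4:**
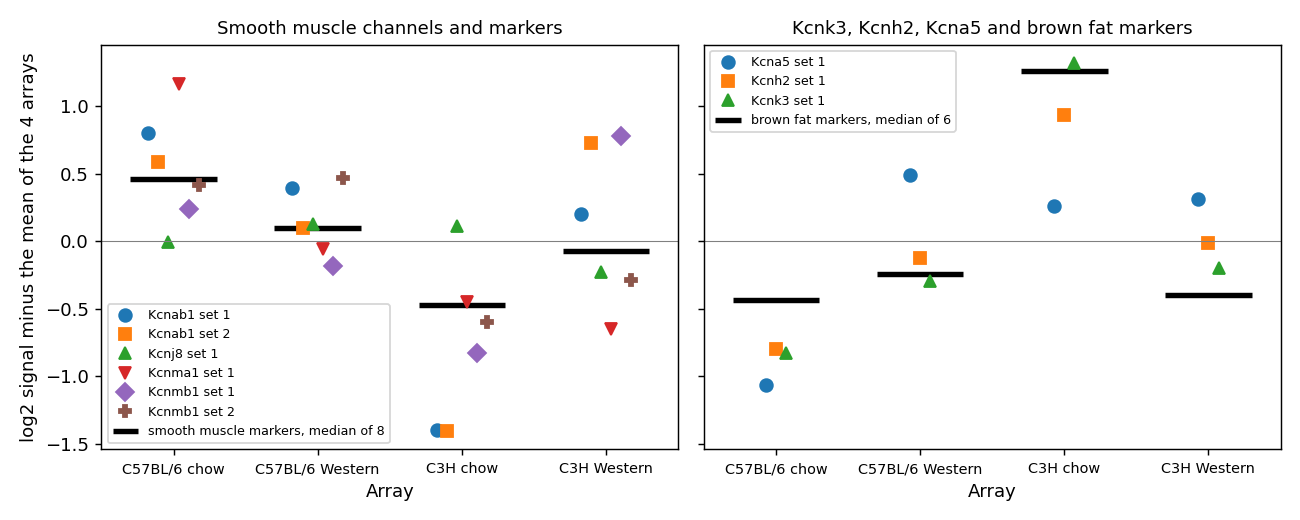
log2 signal on each array minus the mean of the 4 arrays, for Kcnab1, Kcnmb1, Kcnma1 and Kcnj8 (left) and for Kcnk3, Kcnh2 and Kcna5 (right). Black bars are the median of the 8 smooth muscle markers (left) or the 6 brown fat markers (right). Kcna5, drawn on the right, is also a channel of smooth muscle, and its difference between strains on chow was log2 1.32. On C3H chow the smooth muscle bar is at -0.47 with the Kcnab1, Kcnmb1 and Kcnma1 points below 0 and Kcnj8 above 0, and the brown fat bar is at 1.26.

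Of the 44 genes listed as partners of these channels in membrane potential and calcium handling, 30 were on the array under a single name and 27 were above the floor on at least 1 array. Between strains on chow 17 were measured, of which 2 were 2-fold or more higher in C3H (Atp2a3 and Stim1) and 6 lower (Abcc9, Casq2, Atp2a2, Pln, Camk2g and Mylk). Atp2a2, the calcium pump of the sarcoplasmic reticulum in heart and smooth muscle, gave 8971 and 7599 in C57BL/6 against 2336 and 2003 in C3H. Pln, which inhibits that pump, gave 1135 and 900.2 against 200.1 and 179.9, and Casq2, the calcium store protein of the heart, 393 and 246 against 137 and 63.9. All 3 were lower in C3H on both diets, as the 9 heart muscle markers were, while the smooth muscle markers had a median of log2 -0.15 on Western diet, and the part of heart tissue in these genes was not tested. Mylk, the kinase that starts smooth muscle contraction, gave 4227, 2432, 1954 and 2522 on chow and Western diet in C57BL/6 and then in C3H. Stim1, the calcium sensor of store-operated entry, gave 147, 220.3, 378 and 265. On Western diet 0 of 18 were 2-fold or more higher in C3H and 3 were lower (Atp2a2, Pln and Atp1b1). By the same 2-fold measure, the diet pairs gave 0 higher and 1 lower of 18 in C57BL/6 (Casq1). In C3H they gave 2 higher (Abcc9 and Camk2d) and 2 lower (Atp2a3 and Atp1b1) of 17. These counts can be read against the background shares given above for each pair.

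In the additive limma fit with terms for strain and diet, 38 channel probe sets entered. For strain 0 of them passed an adjusted p of 0.05, where 57 of all 14915 passed (0.382%). At an unadjusted p under 0.05 were 3 of the 38 (set 1 of Kcnab1, set 1 of Kcnk3, and Kcne4) and 873 of all 14915. For diet 0 passed, as did 0 of all 14915 (0.0%). Here 2 of the 38 (Kcnj4 and Kcnj9) and 367 of all 14915 had an unadjusted p under 0.05. The residual of this fit is the strain-by-diet interaction with 1 degree of freedom, and 1 array per group leaves no test of a single comparison. The variance prior, drawn from all fitted probe sets, had 17.33 degrees of freedom. The SE and p of a probe set therefore rest mostly on the spread of other probe sets. Signals under the floor entered the fit as measured values, not as bounds.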

How the data were processed

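The deposited values are linear intensities of an Affymetrix 1-colour array, 22690 probe sets on 4 arrays, of which 64 controls were left out. Per the labels' protocols, Trizol-extracted total RNA (8 ug) was turned into biotin-labelled cRNA. How signals were summarised is not stated. The 4 deposited columns have 1 trimmed mean (250.1, with 2% trimmed at each end) but medians of 110.3 to 128.1, and quantile normalization of log2 values was applied. Gene names came from the platform annotation, and RefSeq's gene table (GRCm38.p6) updated 0 channel symbols. Marker lists use each gene's probe set with the highest mean signal. The pairs were compared with no test. The additive fit (strain and diet) used limma 3.58.1 in R 4.3.3 with a trended variance prior and adjustment after Benjamini and Hochberg over 14915 probe sets that exceeded the floor on 2 or more arrays, and was tested on simulated data. Alternatives tried were cyclic loess, equal medians or no normalization in place of quantiles, a floor at the 25th or 60th percentile, 1.5-fold, 1 probe set per gene, no filter and no mean trend. Members, marker lists and partner list were chosen with earlier results of these data known. Named were fixed vascular, heart and other tissue channels, all probe sets past 2-fold, those past it by bound with a signal at least 2-fold over the floor, and the brightest of each class. Further channels were named after their values were seen, to account for members near the floor. Python 3.11.15, numpy 2.4.6, pandas 2.3.3 and matplotlib 3.10.9 were used.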

Additional observations from a re-analysis of the deposited data

Results flagged for a closer look

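Of the 10 channel probe sets that exceeded the floor everywhere, 5 had diet responses of opposite direction in the strains that differed at least 2-fold (50%, against 22.3% of 8740 probe sets). The difference was not tested, since each group has 1 array, and each C3H response is taken against the C3H chow array that stood apart. The response in C3H minus that in C57BL/6 was log2 2.00 and 2.62 for the probe sets of Kcnab1 and 2.03 for the first of Kcnmb1, all higher in C3H. It was log2 -2.04 for Kcnk3 and -1.62 for Kcnh2, both lower in C3H.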

How the results depend on the processing

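With a floor at the 25th percentile, 22 of 43 measured channel probe sets were at least 2-fold apart between strains on chow and 8 of 44 on Western diet. For diet they were 9 of 43 in C57BL/6 and 18 of 48 in C3H. The main floor gave 12 of 23, 2 of 17, 3 of 17 and 6 of 20 in the same order. A floor at the 60th percentile gave 3 of 4, 0 of 7, 0 of 7 and 3 of 6. At 1.5-fold there were 7 of 17 between strains on Western diet and 7 of 17 for diet in C57BL/6. The shares of all probe sets with these floors and at 1.5-fold are not given. The other totals in either direction stayed within 1.5 times under cyclic loess, equal medians, no normalization, 1.5-fold and 1 probe set per gene. Under these scalings and with 1 probe set per gene, counts of lower sets moved further in 3 pairs, to 3 from 5 between strains on chow (cyclic loess, and 1 probe set per gene), to 1 from 2 for diet in C57BL/6 (cyclic loess, and no normalization) and to 1 from 2 for diet in C3H (cyclic loess). At 1.5-fold 4 were lower for diet in C3H. Equal array medians moved the median of all probe sets for diet in C3H to log2 0.11. They changed the split of all probe sets into higher and lower to 646 and 1053 between strains on chow and to 865 and 455 for diet in C3H. Each of the 57 log2 differences of named probe sets moved by less than the spread between probe sets of a gene (0.51 to 0.62) under the 3 scalings, at most by 0.25. In limma 0 channel probe sets passed for strain or diet under the alternatives, with lowest adjusted p of 0.136 (no filter) to 0.758 for strain and of 0.771 or more for diet. No replicate could be left out, and no paired analysis was possible because each group has 1 array.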
